A study of Mus musculus with 24 samples.

Results

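miR-132 and miR-212 are the products of 2 microRNA (miRNA) genes that lie beside each other and are processed from a common primary transcript. Both were chosen by name (mir-132 and mir-212), 2 of the 510 miRNAs listed in the deposited table, and both had enough counts to be tested. Small RNA was sequenced from the mammary gland of MMTV-PyMT mice and of normal FVB females of the same age, 3 libraries of each at weeks 6, 8, 10 and 12, which gave 24 libraries in 8 groups. The PyMT mice carried a polyoma middle T transgene on the FVB strain, driven by the MMTV promoter in the mammary epithelium, and were heterozygous for it. The paper assigns hyperplasia to their glands at the first of these weeks, then adenoma with mammary intra-epithelial neoplasia, early carcinoma and, at week 12, late carcinoma. All 4 stages are called tumor here. The normal mice had no transgene, and no treatment is listed for either genotype. RNA came from pieces of whole tissue, so each library mixes epithelium, fibroblasts, vessels, fat and any muscle or lymph node taken with it. By the paper's pathology review, the carcinoma samples were mostly tumor cells, with few stromal, muscle or inflammatory cells. Tissue of the hyperplasia and adenoma stages still held normal gland cells.

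The cluster of miR-132 and miR-212 is known as a target of the transcription factor CREB and is abundant in neurons, where activity induces it. In the mammary gland, mice without the cluster were reported to have impaired ductal outgrowth traced to the stroma, whereas another knockout line was reported to develop normal glands. A miRNA recognizes its target mRNAs mainly through its seed, bases 2 to 8 of the mature strand, and members with the same seed share many predicted targets.

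The mature sequences are shown because they tell which of these products act through a common seed. They are the RefSeq entries of GRCm38.p6, written 5′ to 3′ with the seed in capitals.
miR-132-3p: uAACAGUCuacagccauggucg
miR-212-3p: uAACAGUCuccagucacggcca
miR-132-5p: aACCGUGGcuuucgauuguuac
miR-212-5p: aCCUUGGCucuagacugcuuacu
The 3p strands had the same seed, and 17 of their 22 bases were identical. Counting from 1 at the 5′ end, and with the miR-132-3p base first, they differed at A10C, C14U, U17C, U20C and G22A, all outside the seed. The 5p strands had different seeds and, position by position from the 5′ end, shared 9 of the 22 positions that could be compared. They were not shifted against each other, so this count is not a measure of how alike they are. Among 1738 mature mouse entries, no sequence other than miR-132-3p and miR-212-3p had the seed AACAGUC, and neither 5p seed occurred in another entry.

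In the mm9 assembly, each hairpin matched a single place on the plus strand of chromosome 11. Mir212 was at chr11:74986890-74986980 and Mir132 at chr11:74987184-74987249, with 203 bases between them. Both lay in intron 1 of the long noncoding RNA 1700016P03Rik, which has 3 exons and spans chr11:74986062-74991135 on the same strand. Genes annotated nearby included Hic1, which encodes a transcriptional repressor, at chr11:74978067-74983021, and Ovca2 at chr11:74989444-74992337. The table gives 1 count per miRNA name, so the 5p and 3p strands are counted together. The count of miR-132 or of miR-212 is therefore not a count of the seed shared by the 3p strands.

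Total counts were 1626022 to 3931375 in the normal libraries and 1032241 to 2213972 in the tumor libraries, so the tumor libraries were the shallower ones. Values are given as normalized counts in CPM, the count scaled to its library after TMM normalization. A count of 3, taken as the detection floor, corresponded to 0.763 to 1.84 CPM in normal glands and 1.36 to 2.91 CPM in tumors, without TMM. Both members were above the floor in every library, and both were far from the most counted miRNAs. Among the 237 miRNAs kept for testing, miR-132 ranked between 135 and 178 in a library, and miR-212 between 173 and 202. Intervals and floors of this kind cover counting error only.

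miR-132 was under-expressed in tumor. Its level had a median of 49.2 CPM over the 12 normal libraries, with a range of 30.2 to 76.0, and a median of 30.1 CPM over the 12 tumor libraries, with a range of 21.2 to 35.5. Every tumor library was below the normal median. These levels rested on 64 to 270 counts per normal library and 18 to 76 per tumor library, 1732 and 588 counts in all.

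At week 6, miR-132 was 30.2, 47.5 and 70.0 CPM in the normal libraries and 28.9, 32.3 and 35.5 CPM in the hyperplastic glands. At week 8 the normal libraries had 34.3, 51.0 and 54.5 CPM and the adenomas 29.2, 21.2 and 23.2 CPM. The groups overlapped at week 6, through the lowest normal library, and did not overlap at week 8. At week 10 the normal values of miR-132 were 52.1, 46.5 and 43.3 CPM, against 33.4, 26.3 and 30.3 CPM in the early carcinomas. At week 12 they were 31.1, 76.0 and 51.3 CPM, against 29.8, 35.2 and 32.5 CPM in the late carcinomas. The groups were again apart at week 10, while at week 12 the lowest normal library fell among the carcinomas. miR-132 was lower in the tumor library than in the normal library of the same number and week in 12 of 12 comparisons. The libraries so compared were on the same lane. How many of all tested miRNAs were lower in every such comparison was not determined, so this count does not set miR-132 apart. Tumor below normal without overlap was seen at 2 of the 4 weeks for miR-132. Among all 237 tested miRNAs, 34.6% were in that position for the hyperplastic glands, 19.8% for the adenomas, 31.6% for the early and 28.7% for the late carcinomas.

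At weeks 6, 8 and 12 the normal libraries differed from each other in miR-132 far more than the tumor libraries did. At these weeks the lowest normal library was on lane 1 and the highest on lane 2, while at week 10 the highest was on lane 1. The part of the lane in this spread was not tested. The means at weeks 6, 8, 10 and 12 were 49.2 ± 19.9, 46.6 ± 10.8, 47.3 ± 4.47 and 52.8 ± 22.5 CPM (SD, n = 3). In tumor it was 32.2 ± 3.27, 24.5 ± 4.15, 30.0 ± 3.56 and 32.5 ± 2.69 CPM at the same weeks. Counting alone would give an SD of 4.04, 4.61, 3.61 and 4.54 CPM in the normal groups and 4.51, 4.24, 4.52 and 4.42 CPM in the tumor groups. The spread between tumor libraries was thus no larger than that of counting. The normal libraries spread well beyond it at weeks 6, 8 and 12 and slightly beyond it at week 10. Each of the 4 normal groups had a higher mean than each of the 4 tumor groups. In the order of the 8 groups, neighbouring means differed by more than the larger of their SDs at 2 steps. These were the step of 14.1 CPM from normal week 8 to tumor week 12 and the step of 5.51 CPM from tumor week 10 to tumor week 8, the lowest group.

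miR-212 was the less counted member. Its level had a median of 16.4 CPM in the normal libraries, ranging from 7.97 to 26.7, and of 13.9 CPM in the tumor libraries, ranging from 9.30 to 17.9. The lowest of all 24 values came from a normal gland, so the tumor range lay inside the normal range. The values rested on 27 to 103 counts per normal and 13 to 38 counts per tumor library, 592 and 264 in all.

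At week 6, miR-212 was 14.2, 19.2 and 26.7 CPM in the normal libraries and 10.97, 14.5 and 9.30 CPM in the hyperplastic glands. At week 8 it was 7.97, 20.2 and 25.3 CPM in the normal libraries and 13.4, 15.3 and 12.4 CPM in the adenomas. The hyperplastic glands overlapped the lowest normal library, and the adenomas were between the lowest and the other two. At week 10 the normal libraries had 13.6, 15.9 and 11.6 CPM of miR-212, and the early carcinomas 12.4, 16.3 and 13.4 CPM. At week 12 the values were 15.9, 17.4 and 16.8 CPM, against 14.9, 17.9 and 14.3 CPM in the late carcinomas. At these later weeks the libraries were intermixed, and tumor and normal overlapped at each of the 4 weeks. The tumor library was the lower one in 8 of the 12 comparisons by number and week.

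The means of miR-212 were 20.03 ± 6.31, 17.8 ± 8.89, 13.7 ± 2.16 and 16.7 ± 0.765 CPM (SD, n = 3) in normal glands at weeks 6, 8, 10 and 12. The tumor means were 11.6 ± 2.67, 13.7 ± 1.49, 14.05 ± 2.04 and 15.7 ± 1.92 CPM. The highest means were those of the normal glands at weeks 6 and 8 and the lowest that of the hyperplastic glands at week 6. No neighbouring groups in this order differed by more than the larger of their SDs.

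**Figure D1:**
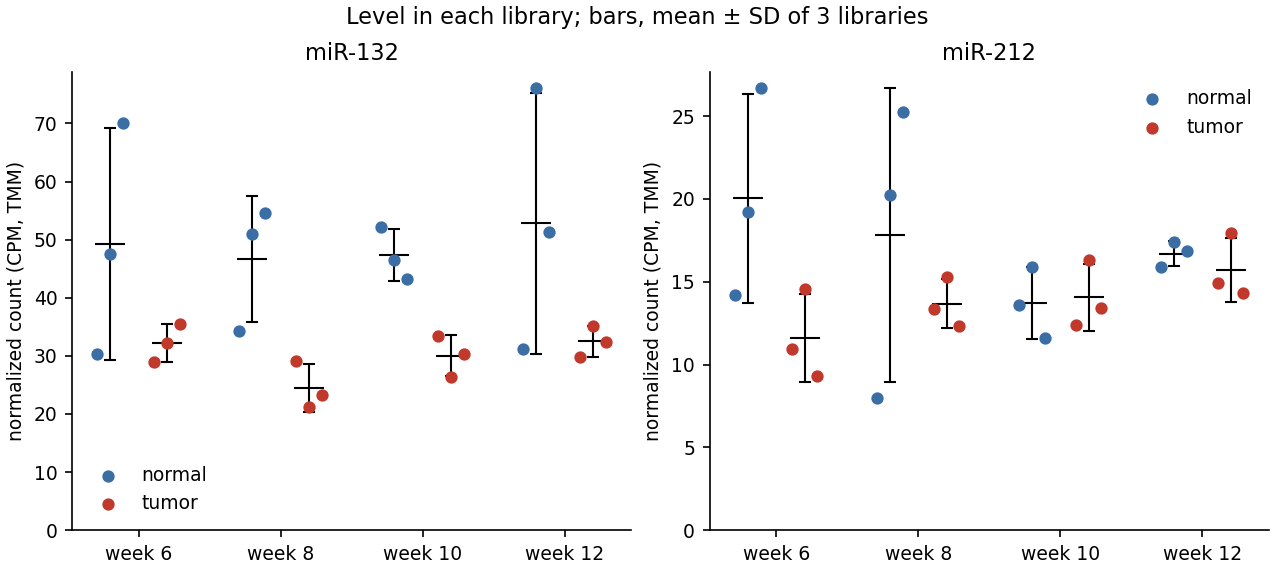
Normalized count of miR-132 (left) and miR-212 (right) in CPM for each library, by week, with normal glands in blue and tumors in red and bars for the mean and SD of 3 libraries. All 12 tumor libraries lie at or below 35.5 CPM of miR-132, while for miR-212 the tumor values (9.30 to 17.9 CPM) lie inside the normal range.

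Whether each member differed between tumor and normal was tested at each time point with edgeR's quasi-likelihood test. The p-values were adjusted by Benjamini-Hochberg over the 237 miRNAs. Changes are log2 fold changes of tumor against normal with their standard errors. miR-132 had a change of −0.61 ± 0.33 at week 6 (adjusted p = 0.147) and of −0.93 ± 0.29 at week 8 (adjusted p = 0.0411). The change was −0.66 ± 0.21 at week 10 (adjusted p = 0.0287) and −0.70 ± 0.33 at week 12 (adjusted p = 0.116). So miR-132 was called under-expressed at weeks 8 and 10, while at weeks 6 and 12, where the normal libraries spread most, it did not pass the threshold. An under-expressed call was given to 29.5% of the tested miRNAs in the hyperplastic glands, 13.5% in the adenomas, 27.4% in the early and 21.5% in the late carcinomas. The weekly calls of miR-132 were not firm. At week 8 the call was kept in 1 of 6 fits that left out a replicate, the fit without normal replicate 1, with adjusted p-values up to 0.159. At week 10 it was lost without tumor replicate 2, tumor replicate 3 or normal replicate 1, with adjusted p-values up to 0.0982. Without normal replicate 1, the lowest normal library of both weeks, miR-132 was called at week 6 (−0.86, adjusted p = 0.0330) and at week 12 (−0.97, adjusted p = 0.0368). In the other direction, the change was −0.28 at week 6 without normal replicate 3 (adjusted p = 0.426) and −0.40 at week 12 without normal replicate 2 (adjusted p = 0.297), the highest normal library of each week.

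For miR-212 the change was −0.81 ± 0.32 at week 6 (adjusted p = 0.0606), −0.38 ± 0.43 at week 8 (adjusted p = 0.481), 0.0044 ± 0.25 at week 10 (adjusted p = 0.987) and −0.097 ± 0.24 at week 12 (adjusted p = 0.742), by the same edgeR test. None of the 4 weeks passed the threshold. At week 6, leaving out normal replicate 1, the lowest normal library, gave a change of −1.001 and a call (adjusted p = 0.0298). At week 8 the change was −0.72 without normal replicate 1 (adjusted p = 0.105) and −0.039 without normal replicate 3 (adjusted p = 0.947). With every library thinned at random to the smallest total, it was −0.37 at week 6, 0.23 at week 10 and −0.60 at week 12, so the values of miR-212 at single weeks have no firm order. The sign at week 10 was negative without tumor replicate 2, normal replicate 1 or normal replicate 3, with the lowest value at −0.17.

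Over the 4 weeks together, miR-132 was under-expressed by a mean of 0.72 log2 units, that is a change of −0.72 ± 0.15 (adjusted p = 2.22e-04, edgeR's quasi-likelihood test on all 24 libraries). miR-212 had −0.31 ± 0.16 (adjusted p = 0.0745). With this pooled test 85.7% of the 237 miRNAs were differentially expressed and 46.8% were under-expressed, so a call alone does not set miR-132 apart. The call for miR-132 held whichever replicate was omitted (6 fits), with changes from −0.90 to −0.64. That of miR-212 was gained without tumor replicate 2 (−0.55, adjusted p = 0.0134) and without normal replicate 1 (−0.49, adjusted p = 0.00225). The median change of all tested miRNAs was −0.15. It was −0.12, −0.089 and −0.19 at weeks 6, 8 and 12, and with library totals in place of TMM it moved to −0.26, −0.22 and −0.0059. Relative to the median of each week, the change of miR-132 was −0.49, −0.84, −0.52 and −0.51 at weeks 6, 8, 10 and 12, and −0.50, −0.86, −0.51 and −0.60 with library totals. Relative to the pooled median the pooled change of miR-132 was −0.57, and −0.58 with library totals. The pooled change of miR-212 was −0.16 and −0.17 on the same footing.

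**Figure D2:**
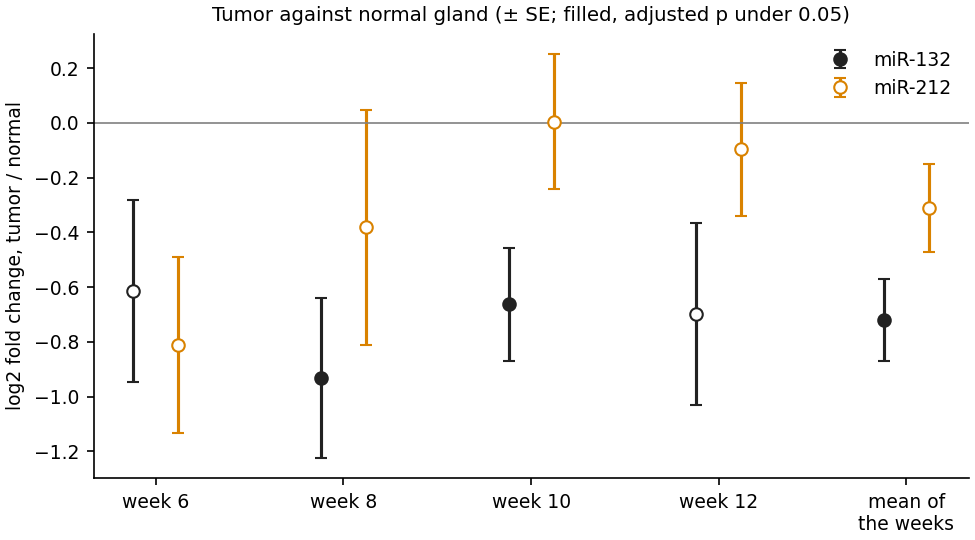
Log2 fold change of tumor against normal for miR-132 (black) and miR-212 (orange) at each week and as the mean of the weeks, with bars for the standard error and filled points for an adjusted p under 0.05. miR-132 lies between −0.93 and −0.61 at every week, and miR-212 is at −0.81, −0.38, 0.0044 and −0.097 at weeks 6, 8, 10 and 12, an order that was not kept after thinning to the smallest total.

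The libraries were sequenced on 2 lanes, and each group had libraries on both. Averaged over the weeks, the difference of tumor minus normal in log2 CPM of miR-132 was −0.43 within lane 1 and −0.92 within lane 2, beside −0.66 over both (exact permutation test within weeks, two-sided, p = 2.00e-04). For miR-212 it was −0.11 and −0.60, beside −0.25 over both (exact permutation p = 0.122). Both members were thus lower in tumor on each lane, and by more on lane 2. In tissue of this kind, fewer cells of the type that holds a miRNA and less of it per cell cannot be told apart.

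No change along the time points was detected for either member. For both members together the question is whether the tumor-normal difference itself depends on the stage, and it was tested with interaction contrasts in edgeR. The adjusted p-value was 0.971 for miR-132 and 0.938 for miR-212. Of the 237 miRNAs none passed this test (0%), 9 had an unadjusted p under 0.05, and the likelihood ratio test of DESeq2 also called 0. From week 6 to week 12 the difference of miR-132 moved by −0.08 ± 0.42 (edgeR, adjusted p = 0.906) and that of miR-212 by 0.72 ± 0.45 (edgeR, adjusted p = 0.432), where 0.422% of the tested miRNAs were called. After thinning, the shift of miR-212 was −0.20, with the opposite sign.

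Within the normal glands, miR-132 changed by 0.09 ± 0.29 from week 6 to week 12 (edgeR, adjusted p = 0.876) and miR-212 by −0.27 ± 0.31 (edgeR, adjusted p = 0.589), with 21.1% of all tested miRNAs called. Within the tumors the changes were 0.01 ± 0.30 (edgeR, adjusted p = 0.984) and 0.45 ± 0.33 (edgeR, adjusted p = 0.393), with 7.59% called. Over all 4 weeks, variation in normal glands had adjusted p-values of 0.976 for miR-132 and 0.643 for miR-212 (edgeR, 13.9% called). In tumors both were 0.880 by edgeR, which called 0 of the 237 miRNAs although 39 had an unadjusted p under 0.05, and DESeq2 called 13.

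The 2 members come from a common transcript, so the ratio of their counts within a library asks whether they moved together, and it does not depend on how libraries are scaled. In all, 2.93 counts of miR-132 were obtained per count of miR-212 in normal glands and 2.23 in tumors. This is a ratio of counts, not of molecules. The log2 ratio per library (0.5 added to each count) was 1.53 ± 0.40 in the 12 normal and 1.10 ± 0.37 in the 12 tumor libraries (SD). The difference of −0.42 had an exact permutation p of 0.0168 (two-sided, labels exchanged within weeks). It was 0.21 at week 6 and −0.68, −0.70 and −0.52 at weeks 8, 10 and 12, so the ratio was lower in tumor at 3 of the 4 weeks.

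In normal glands the log2 ratios were 1.08, 1.30 and 1.39 at week 6 and 2.08, 1.33 and 1.10 at week 8. In the corresponding tumors they were 1.38, 1.13 and 1.90, and 1.11, 0.45 and 0.90. The groups overlapped at both of these weeks. At week 10 the normal ratios of 1.93, 1.54 and 1.89 were all above the tumor ratios of 1.41, 0.67 and 1.16. At week 12 the normal ratios were 0.96, 2.12 and 1.60, with the tumor ratios of 0.99, 0.96 and 1.16 near the lowest of them. The call rested on tumor replicate 2, which had the lowest tumor ratio at each week. Without it the difference was −0.28 (exact permutation p = 0.139), and within lanes 1 and 2 it was −0.34 and −0.32.

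**Figure D3:**
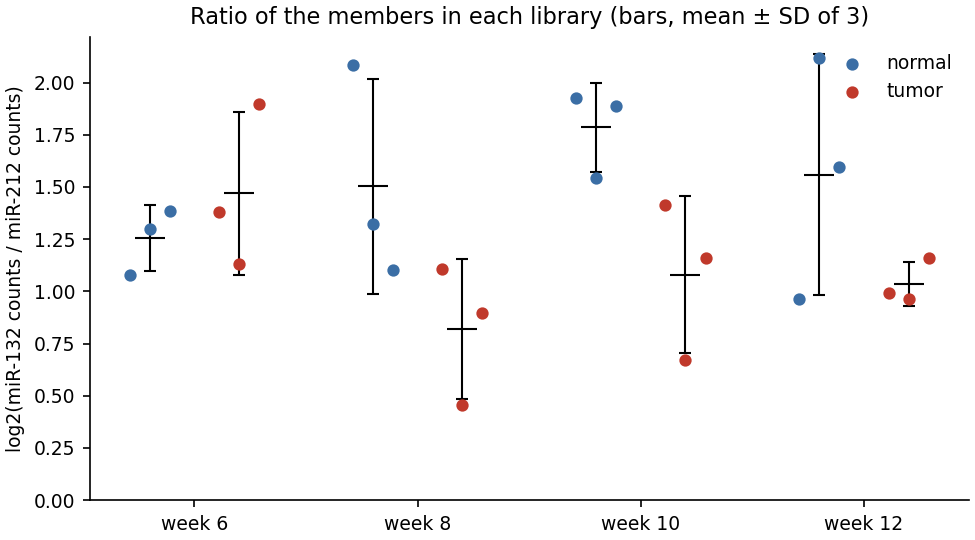
Log2 ratio of miR-132 to miR-212 counts in each library by week, normal in blue and tumor in red, with bars for the mean and SD of 3 libraries. The mean tumor ratio is above the normal one at week 6 and below it at weeks 8, 10 and 12, and the groups are apart at week 10 alone.

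Across the 12 normal libraries the correlation of the members did not pass the adjusted threshold, with Pearson's r = 0.60 (permutation p = 0.0379, adjusted 0.0758 over the 2 genotypes) and Spearman's rho = 0.65 (permutation p = 0.0256, adjusted 0.0512). Without the 2 libraries farthest from the median of miR-132, r was 0.73 (permutation p = 0.0167) and rho 0.67 (permutation p = 0.0387). After removal of the group means r was 0.66. Across the 12 tumor libraries it did not either, with r = −0.17 (permutation p = 0.618) and rho = −0.13 (permutation p = 0.702), and with r = −0.21 without the 2 farthest libraries. The spread between tumor libraries was no larger than that of counting, and whether the correlations differ between genotypes was not tested. Libraries of high miR-132 and high miR-212 were the normal glands of week 6 with 70.0 and 26.7 CPM and of week 8 with 54.5 and 25.3 CPM. The normal gland with the most miR-132, 76.0 CPM at week 12, had only 17.4 CPM of miR-212. The libraries named here were all on lane 2. The permutations exchanged libraries across weeks and lanes, so their p-values account for neither.

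**Figure D4:**
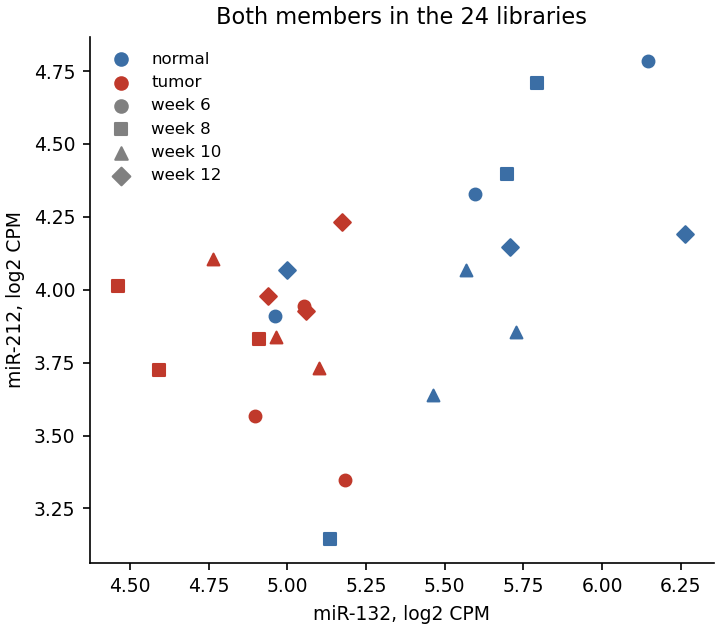
Log2 CPM of miR-132 (horizontal) against log2 CPM of miR-212 (vertical) in the 24 libraries, colored by genotype and with a symbol for each week. The normal libraries are spread over both axes (r = 0.60), and the tumor libraries form a narrower group at low miR-132 (r = −0.17), and neither correlation passed the adjusted threshold.

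The cell types of the tissue were followed through 8 lists of miRNAs linked to them, with changes averaged over the weeks and called by edgeR as above. The label of the cluster as stromal cannot be checked from bulk tissue, so the members were set beside those lists. The fibroblast-linked miR-199a, miR-199b and miR-214, which mark mesenchymal cells, were all under-expressed (3 of 3, median −1.09), from −0.91 for miR-214 to −1.25 for miR-199b. Their summed level was 12658 to 19882 CPM in normal and 4179 to 8040 CPM in tumor libraries, without overlap, and all 3 were called at each of the 4 weeks. Of all 237 tested miRNAs, 46.8% were under-expressed in the pooled test, and 7.59% were called under-expressed at all 4 weeks. The smooth muscle and myoepithelial miR-143 and miR-145 were both under-expressed (−1.22 and −1.61), as was the endothelial miR-126 (−1.25), the only member of its list. The median of all tested miRNAs was −0.15, and the medians of these stromal and vascular lists lay below it and below the pooled change of either cluster member.

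Of the 10 epithelial miRNAs, 8 were over-expressed, 1 was under-expressed and 1 was not called, with a median of 2.03. Of all 237 tested miRNAs, 38.8% were over-expressed in the pooled test. The highest change was that of miR-200b (2.54), of the family that maintains the epithelial state, and the lowest that of miR-203 (−0.70), a miRNA of differentiating squamous epithelium. Their summed level was 15327 to 30652 CPM in normal and 57013 to 98241 CPM in tumor libraries. The 3 adipose miRNAs had 2 under-expressed and 1 not called (median −0.38), from −1.20 for miR-378 to 0.36 for miR-193b. Among leukocyte miRNAs, 3 of 4 were tested and the lymphocyte miR-150 was under-expressed (−2.05), while miR-142 and miR-155 were not called (median −0.13). The myeloid miR-223 was at 0 in every library. Only 364 of the 510 listed names had a count in any library, so this 0 is not read as an absence of myeloid cells.

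Neurons, in which the cluster is abundant, are present in the gland only as nerve fibers. Of 5 neuronal miRNAs, 3 were tested, with 1 over-expressed (miR-9, 3.58), 1 under-expressed (miR-129, −2.26) and 1 not called, and a median of 0.27. The defining neuronal miR-124 had 83 counts over all 24 libraries and miR-137 had 12, and both were below the filter. The tested skeletal muscle miRNAs miR-1, miR-133a and miR-133b were all under-expressed (3 of 4 in the list, median −3.16), with a summed level from 89.0 to 89335 CPM in normal and 39.9 to 18075 CPM in tumor libraries. The part of these cell types in the lower level of miR-132 was not tested.

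Measured against the fibroblast miRNAs of the same library, both members were relatively higher in tumor. These fibroblast miRNAs themselves fell by a median of −1.09, against −0.15 for all tested miRNAs. A miRNA with the median change of all tested ones would also be higher by this measure. The tests below therefore do not set the members apart, and how many other miRNAs were higher was not determined. The log2 CPM of miR-132 minus the mean of the 3 fibroblast miRNAs was −6.15 ± 0.41 in normal and −5.71 ± 0.31 in tumor (SD, n = 12 libraries). The difference of 0.44 (exact permutation test within weeks, p = 0.0118, adjusted 0.0118) was positive at each week, with 0.40, 0.17, 0.41 and 0.77 at weeks 6, 8, 10 and 12. For miR-212 the values were −7.63 ± 0.45 and −6.78 ± 0.45, with a difference of 0.85 (exact permutation p, adjusted over the 4 tests of members and lists, 7.17e-04) and weekly values of 0.20, 0.83, 1.09 and 1.28. The result for miR-132 was not firm. Without normal replicate 1 the difference was 0.27 (exact permutation p = 0.1) and against miR-214 alone 0.25 (exact permutation p = 0.129), and within lanes 1 and 2 it was 0.64 and 0.11, also without a test. For miR-212 the difference was 0.69 without normal replicate 1 (exact permutation, adjusted p = 0.00893) and 0.67 against miR-214 alone (exact permutation, adjusted p = 0.00580). Within the lanes it was 0.97 and 0.43, values that were not tested.

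Against the 10 epithelial miRNAs both members were lower in tumor. These epithelial miRNAs themselves rose by a median of 2.03, against −0.15 for all tested miRNAs. A miRNA with the latter change would also be lower by this measure. Neither the tests nor the lack of overlap therefore sets the members apart, and how many other miRNAs showed the same was not determined. The difference was −2.33 for miR-132 and −1.92 for miR-212, each with an exact permutation p of 1.25e-05, the smallest that 160000 arrangements can give, and an adjusted value of 2.50e-05. Normal and tumor libraries did not overlap in either of them, and both differences were between −2.61 and −1.63 at every week. Against miR-203 alone, the epithelial miRNA that fell, the differences were −0.10 for miR-132 (exact permutation p = 0.714) and 0.31 for miR-212 (exact permutation p = 0.347).

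**Figure D5:**
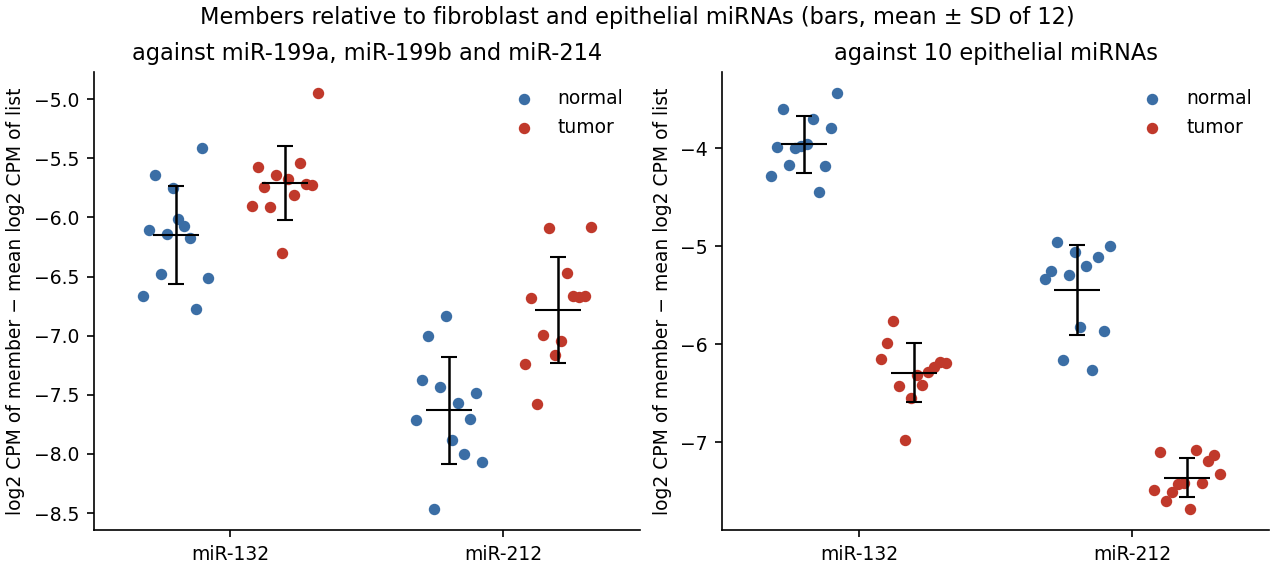
Log2 CPM of each member minus the mean log2 CPM of the 3 fibroblast miRNAs (left) or the 10 epithelial miRNAs (right) in each library, normal in blue and tumor in red, with bars for the mean and SD of 12 libraries. Against the fibroblast miRNAs the tumor libraries are higher by a mean of 0.44 (miR-132) and 0.85 (miR-212), and against the epithelial miRNAs the differences are −2.33 and −1.92.

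The miRNAs whose levels followed each member most closely were taken from Pearson's r of log2 CPM over the 24 libraries, as a description without a test. These libraries share the genotype difference, so r also reflects it. Closest to miR-132 were let-7a (r = 0.82), of the let-7 family that restrains proliferation, miR-455 (0.80), the smooth muscle miR-145 (0.79), miR-130a (0.79) and miR-195 (0.79), of the miR-15/16 family. miR-212 came at position 45 with r = 0.52. Closest to miR-212 were miR-495 (0.63), miR-665 (0.60), miR-34c (0.58), of a family induced by p53, let-7e (0.57) and miR-204 (0.54), with miR-132 at position 7. The 5 nearest miRNAs of the members had no name in common.

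After the 8 group means were removed, which leaves the differences between libraries of the same genotype and week, the order was another. On this scale 17 of 24 libraries deviated most like the library of the same number, week and lane in the other genotype. So r can also reflect the lane or another factor that such libraries share, which was not tested. Closest to miR-132 were then miR-20a (r = 0.71), of the miR-17-92 cluster, let-7c (0.70), miR-93 (0.70) and the epithelial miR-183 (0.70) and miR-96 (0.68). Those closest to miR-212 were miR-15b (0.75), miR-181c (0.73), miR-25 (0.71), miR-93 (0.69) and miR-18a (0.67). miR-93 stood in both of these lists, and miR-25 and miR-93 belong to the miR-106b-25 cluster. The members themselves had r = 0.53 on this scale, position 29 for miR-212 among the neighbours of miR-132 and position 27 the other way.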

How the data were processed

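The authors removed barcodes and adaptors, aligned reads of 17 to 27 bases with Bowtie and counted those that overlap most of a miRBase miRNA. They deposited raw counts per miRNA, with both strands of a hairpin under the same name. The assembly is mm10 in the paper and mm9 per the labels. Groups, weeks, replicate numbers and lanes are those of the labels. Per the paper, the 3 libraries of a group come from 3 mice. No pair of libraries held identical counts.

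edgeR 4.0.16 in R 4.3.3 was run on the whole table, with TMM, filterByExpr over 8 groups (237 miRNAs) and a threshold of 0.05 on adjusted p. Weekly tests used the libraries of that week. Tests over weeks used a single fit of 24 libraries. Log2 CPM has a prior count of 2. Correlation tests drew 100000 permutations. Exact tests enumerated all exchanges of genotype within weeks. The alternatives were DESeq2 1.42.0, other scalings and filters, thinning to 1032241 counts, omission of the 5 most counted miRNAs, the lane or replicate number as a term, and omission of each replicate. Values within lanes were added after seeing the data. The edgeR and permutation steps were tested on simulated data.

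The members and lists were chosen with earlier results of these data known. Named miRNAs are the members, the list members and the 5 with the highest correlation to each member. miRNA sequences are from RefSeq (GRCm38.p6), and their mm9 positions come from exact matches to that assembly.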

Additional observations from a re-analysis of the deposited data

How the results depend on the processing

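The 2 members gave 424 alternative values over all results, of which 370 were rated the same, 19 weaker, 14 stronger and 21 reversed. The same means a kept direction and side of the threshold, also where a result stayed uncalled. For tests without a direction it means the side alone. For the untested values within lanes it means a distance from the main value below the SD within groups. The under-expression of miR-132 averaged over weeks was kept in all 9 alternatives and in all 6 omissions of a replicate (−0.90 to −0.64). Its weekly calls were not. At week 8 the call was lost with library totals (−1.08, adjusted p = 0.0771), without the filter (−0.93, adjusted p = 0.0664) and after thinning (−0.90, adjusted p = 0.101). At week 10 it was lost with DESeq2 (−0.65, adjusted p = 0.0512), without the filter (−0.66, adjusted p = 0.0519), after thinning (−0.46, adjusted p = 0.205) and in the single fit of all libraries (−0.65, adjusted p = 0.0692). The cause was not tested, except that thinning leaves fewer counts. Omission of a replicate gave −0.86 to −0.28 for miR-132 in week 6, −1.08 to −0.79 in week 8, −0.80 to −0.58 in week 10 and −0.97 to −0.40 in week 12.

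miR-212 in week 6 gained a call with library totals (−0.96, adjusted p = 0.0384) and in the single fit (−0.81, adjusted p = 0.0395), with −1.001 to −0.56 when a replicate was omitted. In week 10 its change of about 0 turned to −0.013 with library totals and −0.047 without the 5 most counted miRNAs, with −0.17 to 0.082 when a replicate was omitted. In week 12 it turned to 0.054 with library totals. After thinning it was −0.37, 0.23 and −0.60 in weeks 6, 10 and 12. In week 8 it was −0.72 to −0.039 when a replicate was omitted. Averaged over weeks, miR-212 gained a call with DESeq2 size factors (−0.39, adjusted p = 0.0218), DESeq2 (−0.39, adjusted p = 0.0370), no filter (−0.39, adjusted p = 0.0499) and without the 5 most counted miRNAs (−0.46, adjusted p = 0.0127), with −0.55 to −0.20 when a replicate was omitted.

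The changes along time, none of them called, turned sign under several alternatives. The shift of the fold change between weeks 6 and 12 was 0.15 with library totals, 0.0064 with DESeq2 and 0.25 without the 5 most counted miRNAs for miR-132 (−0.48 to 0.28 with a replicate omitted), and −0.20 after thinning for miR-212. In normal glands the change from week 6 to week 12 was −0.15 for miR-132 with library totals (−0.22 to 0.51 with a replicate omitted) and 0.33 for miR-212 after thinning (−0.34 to 0.034 with a replicate omitted). In tumors miR-132 had −0.0013 with library totals, −0.11 with at least 10 counts in every library, −0.029 after thinning and −0.070 with the lane as a term.

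The ratio of the members was −0.51 to −0.28 with a replicate omitted. Relative to the fibroblast miRNAs, miR-132 was 0.27 to 0.54 with a replicate omitted and 0.25 against miR-214 alone. Relative to miR-203 alone the members had −0.099 and 0.31. By Pearson's r the correlation in normal glands passed the adjusted threshold after removal of group means (0.66), with library totals (0.71) and without the 2 farthest libraries (0.73). By Spearman's rho it did not pass without the 2 farthest libraries (0.67, permutation test, adjusted p = 0.0773). Pearson's r in tumors was 0.083 with library totals.

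Within a week, a tumor and a normal library with the same number were sequenced on the same lane, and nothing in the labels pairs the mice. Their deviations correlated with r from 0.0312 to 0.816 over 12 pairs, 10 of them above 0.1, and 17 of 24 libraries correlated best with their own number. With this replicate block the change of miR-132 was −0.54 in week 6 (adjusted p = 0.129), −0.92 in week 8 (adjusted p = 0.0112), −0.66 in week 10 (adjusted p = 0.0442), −0.62 in week 12 (adjusted p = 0.115) and −0.68 averaged over weeks (adjusted p = 5.78e-04), that of miR-212 averaged over weeks was −0.27 (adjusted p = 0.130), and neither member changed a call. It raised the number of miRNAs called in week 8 from 84 to 131. That number was 50 without tumor replicate 1 of week 8. In week 6 it was 139, but 78 and 89 without tumor replicates 2 and 1, and in week 12 it was 120, but 74 without tumor replicate 3. The changes of tumors from week 6 to week 12 gave 18 calls, 30 with DESeq2 and 0 without tumor replicate 1 or 3, and those of normal glands 50 calls and 20 without normal replicate 3.

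With 13 to 76 counts per tumor library for the 2 members, differences between tumor stages smaller than the counting error were not detectable at this depth.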
